A study of Rattus norvegicus with 9 samples.

Results

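Livers of 3 model rats were compared with livers of 3 control and 3 drug rats taken as 1 side, and the genes described are those that set the model livers apart while the drug livers lay near the controls. The arrays were assigned by their labelled group, and all 9 arrays of the series entered, 3 against 6. The animals were Wistar rats, labelled male and weighing 180 to 220 g, and RNA was taken from the liver. From 36 rats placed at random in a control, a model and a drug group of 12 each, 3 rats per group were drawn for a one-colour Affymetrix rat expression array. The title of the series ties the drug group to 7-P. What 7-P is, how the model was made, whether the drug rats also received that treatment, and the doses, times and ages are not stated in the labels. They also give no litter, cage or array day, so p-values measure the spread between these arrays. In RNA of whole liver, fewer cells of a type and less RNA per cell cannot be told apart.

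The liver is made up mostly of hepatocytes, which break down amino acids, handle lipoproteins and detoxify foreign compounds through oxidising enzymes such as the flavin monooxygenases and the cytochrome P450 enzymes, followed by conjugating enzymes. Between the hepatocytes lie Kupffer cells, which are the resident macrophages, the sinusoidal endothelium and the stellate cells. Blood leukocytes that enter the liver add their own transcripts, among them the calcium-binding proteins of neutrophils.

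The model livers differed from the other 6 most clearly in Fmo1, a flavin monooxygenase that oxidises nitrogen and sulfur in drugs, which was about 3.28 log2 units lower. Gpt, Ethe1 and Lipc, which serve amino acid, sulfide and lipoprotein metabolism, were also lower in all 3 model arrays. Gas6, Snx10, Runx1 and Pltp were higher in all 3. No probe set passed the adjusted test in this comparison, so all these are differences in level between arrays and not calls.

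The stretches of 250 bases before the annotated start are shown for the first-named gene on the low side and for Gas6, the ligand on the high side, as RefSeq gives them on the GRCr8 build. Capitals mark matches to 6 short motifs searched on both strands. These were the PU.1 core GAGGAAG, the E-box CACGTG, the GC box GGGCGG, the CCAAT box CCAAT, the TATA box TATAAA and the HNF1 half-site GTTAAT.
Fmo1, chr13:77747667-77747916, minus strand: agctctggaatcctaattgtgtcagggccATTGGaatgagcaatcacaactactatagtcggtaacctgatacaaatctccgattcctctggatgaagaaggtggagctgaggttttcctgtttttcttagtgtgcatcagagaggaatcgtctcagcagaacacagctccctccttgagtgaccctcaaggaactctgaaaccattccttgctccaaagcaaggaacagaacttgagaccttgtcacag
Gas6, chr16:82747426-82747675, plus strand: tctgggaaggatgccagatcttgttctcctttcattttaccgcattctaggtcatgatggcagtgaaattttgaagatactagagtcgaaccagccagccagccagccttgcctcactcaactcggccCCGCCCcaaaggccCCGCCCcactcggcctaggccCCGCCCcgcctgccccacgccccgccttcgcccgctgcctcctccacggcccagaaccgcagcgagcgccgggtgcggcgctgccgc
The Fmo1 stretch had a GC content of 46.4% and held 1 CCAAT box, read on the opposite strand, 221 to 217 bases before the start. A CCAAT box stood in 34.0% of the 33360 distinct promoter stretches of this length. The Gas6 stretch had a GC content of 65.2% and held 3 GC boxes on the opposite strand, between 122 and 82 bases before the start, and 30.5% of stretches held at least 1. No match to the other motifs was found in either stretch. Of 6 genes searched for in the promoter table, 5 were found, and the matches describe letters only.

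Several properties of the arrays varied alongside the groups. Before normalization the trimmed mean signal ran from 33.2 to 80.4 across the 9 arrays. The ratio of 3' to 5' signal of Gapdh, which is higher where less of the 5' end was measured, was 4.09, 12.7 and 9.77 in model 1, 2 and 3. It was 1.52, 3.14 and 3.07 in the controls and 1.31, 9.20 and 8.71 in the drug arrays. The model mean was 8.85 ± 4.37 (SD, n = 3) against 4.49 ± 3.54 (SD, n = 6), with a two-sided exact permutation p of 0.131 on the log2 ratio, or 0.339 adjusted over 3 array measures. Drug 2 and drug 3 lay with model 2 and model 3 on this ratio, and its part in the results was not tested beyond a fit with a term for it, given below. The same ratio of beta-actin was 12.8, 10.7 and 7.31 in model 1, 2 and 3. It was 4.23, 8.41 and 7.59 in the controls and 3.99, 11.5 and 8.63 in the drug arrays. Model 1 was thus the highest of the 9 arrays by beta-actin but the lowest model array by Gapdh. No fit with a term for the beta-actin ratio was run. Hepatocyte markers had a summed signal of 40532 to 46097 in the model arrays, 44992 to 45781 in the controls and 42412 to 46618 in the drug arrays, and 11 of the 12 listed were kept, with Alb, albumin, among them.

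All 9 rats were labelled male, but in 7 arrays, all 3 model arrays among them, transcripts tied to sex did not match that label. Why they did not was not tested. Only control 2 and drug 3 matched the label. Xist, the long RNA that coats the inactive X, read 2.65 and 3.05 on the log2 signal scale in these arrays, beside 8.06 to 10.9 for the other 7. Eif2s3y, a gene of the Y chromosome, was at 6.99 and 7.17 in these and at most 2.53 in the others. Cyp2c11, a cytochrome P450 of the male rat liver, was at 11.3 and 12.1 in them and at 2.87 to 5.22 in the others. Cyp2c12, a cytochrome P450 of the female rat liver, was at 5.82 and 8.19 in them and at 11.9 to 12.4 in the others. All 3 model arrays therefore lay on the other side from 1 control and 1 drug array. Several values that moved by over 1.5 times without control 2 and drug 3 are given with and without them.

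After quantile normalization and removal of dim probe sets, 18625 probe sets covering 10432 named genes were compared. In limma with Benjamini-Hochberg adjustment, 0 probe sets passed an adjusted p under 0.05 (0%), and 1182 had an unadjusted p under 0.05 (6.35%), where 931 would be met by a uniform spread of p-values. Of these 1182, 551 were higher and 631 lower in the model livers. A probe set is called set apart here when all 3 model arrays lay above, or all 3 below, every one of the other 6. That held for 342 probe sets on the high side (1.84%) and 230 on the low side (1.23%), or 3.07% in all. The 9 arrays can be split 3 against 6 in 84 ways. Arrays alike in all groups would thus set apart about 1 probe set in 84 on each side. The low side lay close to that share and the high side above it, and nothing more is read from these counts. The median difference of the probe sets set apart was 0.67 log2 above and -0.83 below, beside 0.04 over all probe sets kept.

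Of the probe sets set apart, most had the drug mean within 0.5 log2 of the control mean, the limit used for near control. These were 283 of the 342 (82.7%) and 201 of the 230 (87.4%), beside 65.3% of all probe sets kept. Being set apart needs control and drug arrays on the same side of the model arrays, so part of this excess follows from the selection and nothing is read from it. They made up 1.52% and 1.08% of all probe sets kept and stood for 202 genes on the high side and 162 on the low side. Between the nearest model array and the nearest other array, 8 of the higher and 14 of the lower ones had a gap of at least 0.5 log2. A gap of at least 1 log2 was found for 2 of them, Fmo1 and Dlx3, both lower in the model livers, at 1.54 and 1.23. All 3 model arrays of Dlx3 lay under the filter limit, close to background, so the size of its gap is uncertain.

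These counts moved with single arrays. Without drug 2 the test gave 2299 probe sets at an unadjusted p under 0.05, without model 2 it gave 758 and without model 3 it gave 730. The number set apart depends on how many arrays are compared, and leaving out 1 array in turn gave between 417 and 1243 on the high side and between 285 and 1040 on the low side. The counts above and below were 1243 and 1040 without model 1, 672 and 524 without model 2, 713 and 502 without model 3, 709 and 608 without drug 2 and 485 and 388 without drug 3. Without control 2 and drug 3 the test gave 0 adjusted and 1093 unadjusted calls. Leaving out control 1 and drug 1, the arrays with the lowest Gapdh ratio, left 754 unadjusted calls and 1 adjusted call. Drug against control, which shares its arrays with 1 side of the comparison, had 0 adjusted and 1345 unadjusted calls (7.22%).

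**Figure D1:**
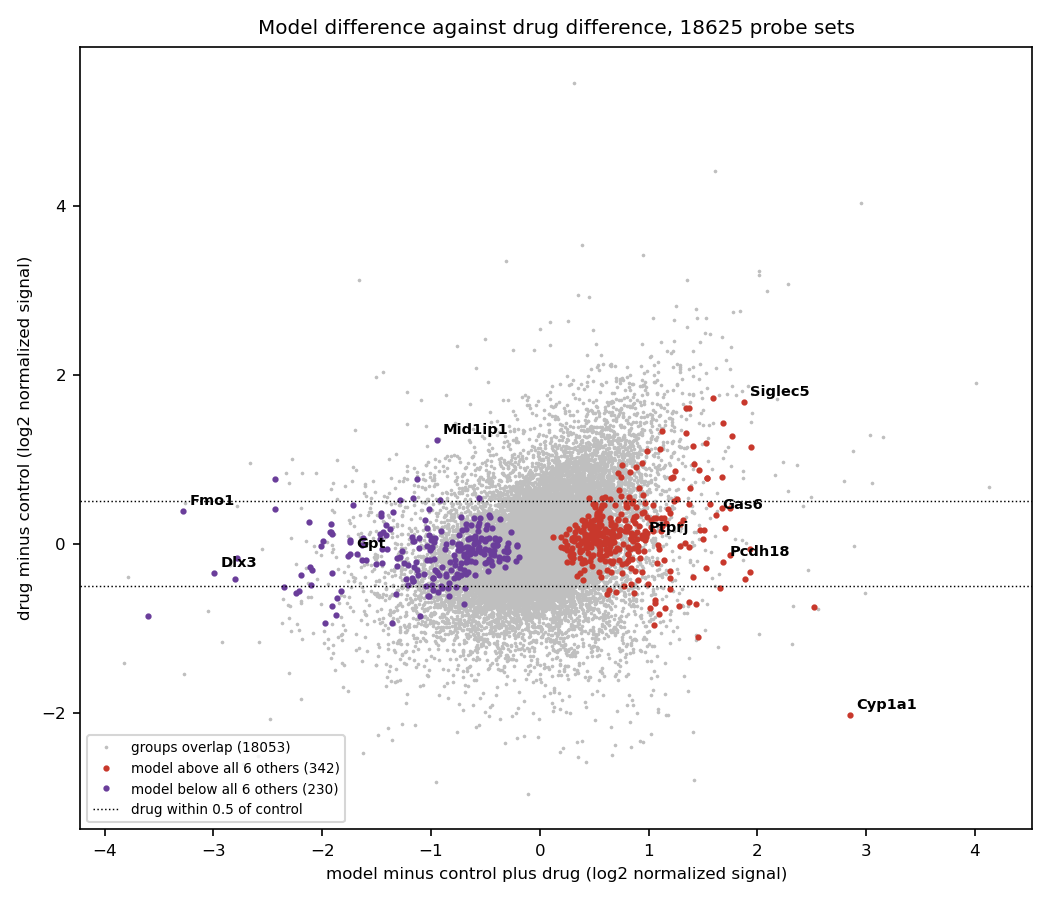
Each point is 1 probe set kept, with the model mean minus the mean of the 6 other arrays on the horizontal axis and the drug mean minus the control mean on the vertical axis, both in log2 units. Set-apart probe sets are coloured by direction, and Fmo1 lies farthest to the left among the labelled genes near the middle of the vertical axis, at -3.28 and 0.38.

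Fmo1 had the smallest p of the low side. It was at 5.03, 5.35 and 4.69 in the model arrays, at 6.89, 8.99 and 8.45 in the controls and at 8.26, 8.49 and 8.74 in the drug arrays (log2 signal). The gap between model 2 and the nearest other array was 1.54, and control 1 was the lowest of the other 6. The difference was -3.28 (SE 0.40), with an adjusted p of 0.0878 in limma. Drug minus control was 0.38 with a 95% interval of -0.65 to 1.42. The difference lay between -3.65 and -2.99 over the alternatives tried, and its adjusted p between 0.000679 (without control 1) and 0.696 (without control 2 and drug 3). It also passed without normalization, without the filter, with array weights, with 1 probe set per gene and with a term for the Gapdh ratio, there at an adjusted p of 0.0327. It did not pass with median centring, trimmed mean scaling or a log offset, at an adjusted p of 0.0779, 0.137 and 0.0835 in limma.

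Gpt, the alanine aminotransferase that feeds alanine into gluconeogenesis, was at 6.82, 5.62 and 6.10 in the model arrays. In the controls it read 8.25, 8.34 and 7.37 and in the drug arrays 8.0, 6.94 and 8.65, so that drug 2 came close to model 1. The difference was -1.75 (SE 0.39) and drug minus control was -0.12. Ethe1, the mitochondrial enzyme that oxidises persulfides formed from hydrogen sulfide, was at 7.14, 6.91 and 7.04 in the model arrays, a span narrower than in either other group. It was at 8.36, 8.31 and 8.58 in the controls and at 8.53, 7.42 and 7.96 in the drug arrays, a difference of -1.16 (SE 0.26). Drug minus control was -0.45 for Ethe1. Drug 2 was again the nearest array to the model side.

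Lipc, the hepatic lipase that trims triglyceride and phospholipid from lipoproteins, was at 8.55, 9.29 and 8.75 in the model arrays. It was at 9.93, 9.93 and 10.1 in the controls and at 9.77, 9.40 and 9.74 in the drug arrays, so model 2 lay just under drug 2. The difference was -0.94 (SE 0.22), with drug minus control at -0.34. Id2, which binds basic helix-loop-helix factors and keeps them from DNA, was 1.05 log2 lower in model mean, at 6.29 to 7.10 against 7.34 to 8.10 in the other 6. Its drug minus control was -0.497, just inside the limit for near control. A brighter Id2 probe set differed by -0.44 and was not set apart. Among the other lower genes were Farp1, a guanine nucleotide exchange factor with a FERM domain, at -1.44, Tor1aip2, a membrane partner of the torsins, at -1.0, and Cdv3 at -1.27. Brighter probe sets of Tor1aip2 and Cdv3 differed the opposite way, by 0.52 and 0.29. Each of these genes had an adjusted p of 0.721 in limma.

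Another 4 genes of the low side had model means under the filter limit of 2.82 log2, where a signal is close to background and the size of the difference is uncertain. All 4 passed the filter through the control and drug arrays. Without control 2 and drug 3, Dlx3 and Atosb no longer passed it and have no value there. Dlx3, a homeobox transcription factor, was at 0.60, 0.24 and 1.91 in the model arrays and at 3.14 to 4.49 in the other 6. The differences of Htr1b, a serotonin receptor, Atosb, and Get4, which hands tail-anchored proteins on for membrane insertion, were -1.93, -2.11 and -2.80. The model arrays of Get4 were at 4.80, 0.57 and 2.64, and without model 2 its difference was -1.76. Next in the same order came Gulo, the last enzyme of vitamin C synthesis in the rat, at -1.04, followed by Eola2, Pik3r2 and Hyi.

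**Figure D2:**
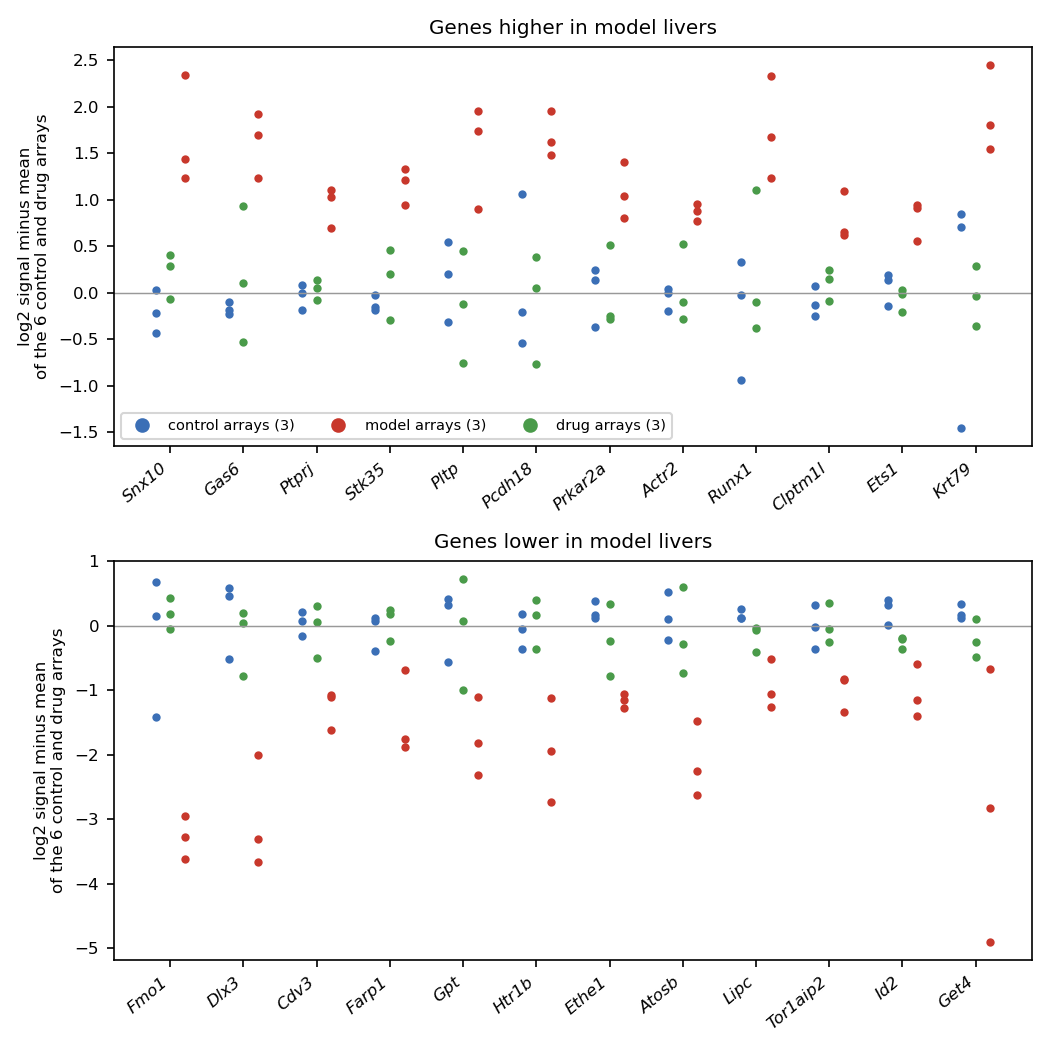
Log2 signal of the 12 higher (upper panel) and 12 lower (lower panel) named genes in each of the 9 arrays, less the mean of the 6 control and drug arrays, with 1 point per array coloured by group. The genes were picked by the rule that all 3 model points lie beyond all 6 others, with the widest gap for Fmo1 at 1.54.

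The high side held a vesicle sorting protein, a ligand, surface receptors, lipid transfer and transcription factors. Gas6, the secreted ligand of the receptors Tyro3, Axl and Mertk, through which phagocytes take up dying cells, was at 9.90, 9.44 and 10.1 in the model arrays. It was at 8.10, 8.02 and 7.98 in the controls and at 8.31, 9.14 and 7.67 in the drug arrays, so drug 2 stood between the model arrays and the rest. The difference was 1.62 (SE 0.30), with drug minus control at 0.34 and a 95% interval of -0.43 to 1.11. Of its receptors, Axl differed by 0.80 (1.2 without model 1, 0.39 with a term for the Gapdh ratio), Mertk by 0.57 and Tyro3 by -0.02, and none was set apart.

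Snx10, a sorting nexin of endosomes, had the smallest p of the high side. It was at 6.44, 5.54 and 5.33 in the model arrays, at 3.88, 4.13 and 3.66 in the controls and at 4.04, 4.50 and 4.39 in the drug arrays. Its gap of 0.83 was the widest among the higher probe sets set apart, and the difference was 1.67 (SE 0.31). Drug minus control was 0.42, with a 95% interval of -0.34 to 1.18, which takes in values outside the limit for near control. The interval did so for each of the 24 named genes, so near control describes the means only.

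Ptprj, a receptor tyrosine phosphatase of leukocytes and endothelium, varied little within the groups. It was at 8.01, 8.34 and 8.42 in the model arrays, at 7.13, 7.32 and 7.40 in the controls and at 7.24, 7.45 and 7.37 in the drug arrays. The difference was 0.94 (SE 0.18), with drug minus control at 0.07. Pltp, which moves phospholipids between lipoproteins, was at 8.70, 8.92 and 7.87 in the model arrays and at 6.21 to 7.51 in the other 6, a difference of 1.53 (SE 0.33). Lipc and Pltp were both picked for being set apart in the model arrays, so their falling in the same 3 arrays follows from that rule.

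Among regulators, Runx1, a transcription factor of blood cell formation, was at 7.20, 6.11 and 6.54 in the model arrays and between 3.93 and 5.97 in the others, with drug 2 highest of these. The difference was 1.75 (SE 0.41). Ets1, a transcription factor of lymphoid and endothelial cells, was 0.81 (SE 0.19) higher, at 7.35 to 7.74 against 6.59 to 6.98. The kinase Stk35 differed by 1.16, the regulatory subunit of protein kinase A Prkar2a by 1.08 and Actr2, a subunit of the actin-branching Arp2/3 complex, by 0.87. Pcdh18, a protocadherin found in stellate cells, was 1.69 higher, Krt79, a keratin, 1.93 and Clptm1l 0.79. Each of the 12 higher genes had an adjusted p of 0.721 in limma. Without normalization, where the median of all genes was -0.24, the differences were 0.33 for Actr2, 0.25 for Clptm1l, 0.55 for Ptprj, 0.44 for Ets1 and 0.65 for Prkar2a, and -1.46 for Lipc.

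**Figure D3:**
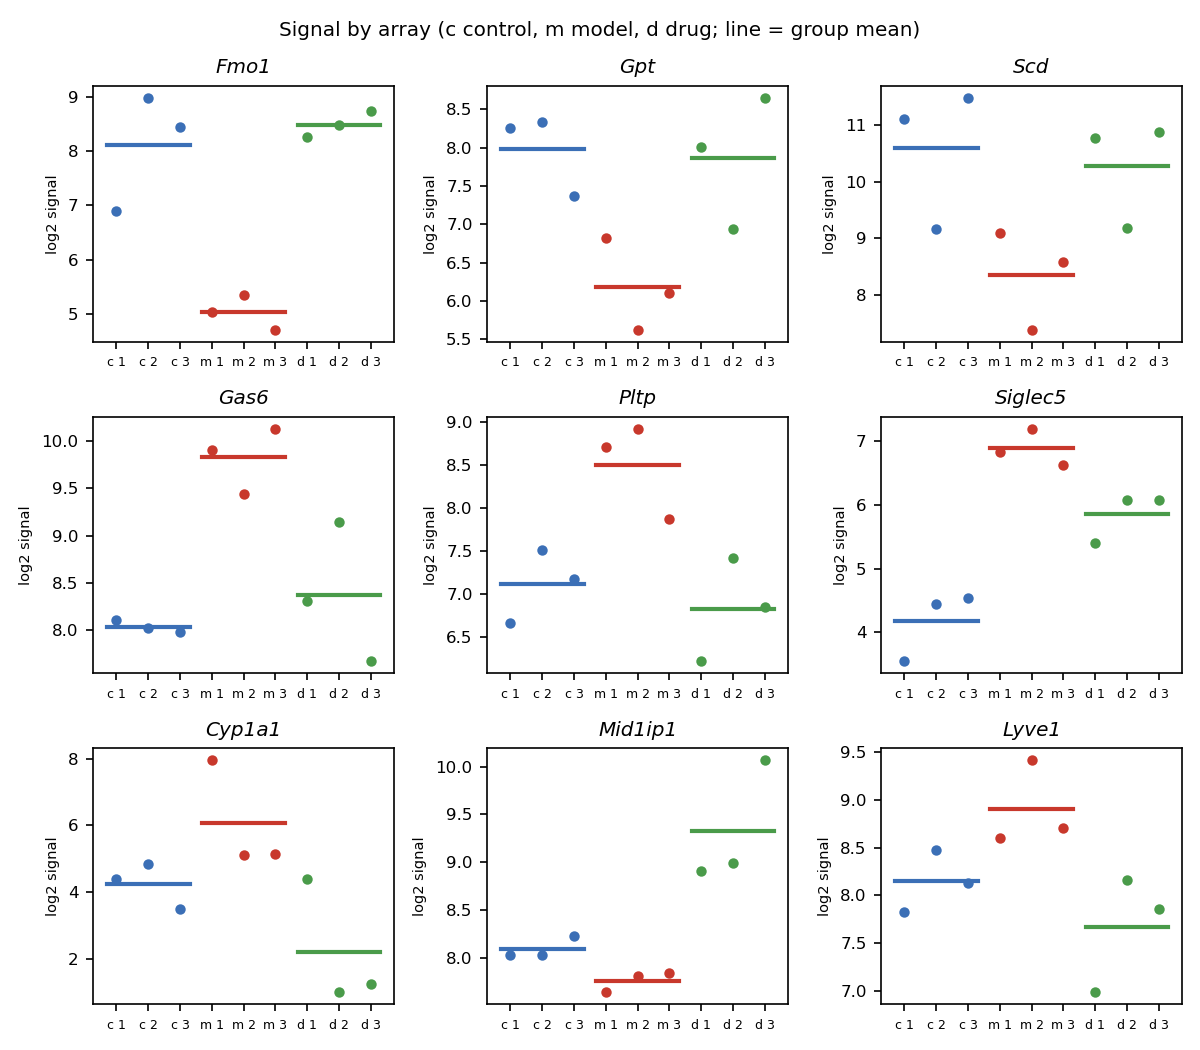
Log2 signal of single genes in each of the 9 arrays, 1 panel per gene and 1 point per array, with a line at each group mean. In the Fmo1 panel the model points lie at 4.69 to 5.35 and the other 6 at 6.89 to 8.99, while in the Siglec5 panel the drug points lie between the controls and the model points.

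Other probe sets of the same genes gave a mixed account. Of the 24 named genes, 12 had only 1 probe set kept. The other 12 had 16 further probe sets kept, of which 10 differed in the same direction and 6 in the opposite one. The opposite ones were brighter probe sets of Cdv3 at 0.29, Get4 at 0.29, Atosb at 0.19 and Tor1aip2 at 0.52, and dimmer ones of Ptprj at -0.56 and Actr2 at -0.13. None of the 16 was set apart in the direction of the named probe set, and the 1 of Tor1aip2 was set apart in the opposite direction. Over all genes, 2654 had at least 2 probe sets kept and 175 of these had at least 1 set apart. Ahctf1, Fnip1 and Zeb2 had at least 2 set apart on the high side, 0 genes had 2 on the low side and 2 genes had probe sets set apart in both directions. Fnip1, a partner of folliculin, was the 1 gene of these with all of its kept probe sets set apart the same way.

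For a small number of set-apart probe sets the drug livers were not near the controls. The drug and control means differed by at least 1 log2 for 15 of the 342 higher and 1 of the 230 lower ones, beside 1704 of all 18625 probe sets kept. Set-apart probe sets need control and drug arrays on the same side of the model arrays. Part of this difference in share follows from the selection, and nothing is read from it. Siglec5, a sialic acid-binding receptor of myeloid cells, was at 6.84, 7.20 and 6.63 in the model arrays, 5.40, 6.08 and 6.08 in the drug arrays and 3.54, 4.44 and 4.54 in the controls. The 3 groups did not overlap, and drug minus control was 1.68 with a 95% interval of 0.92 to 2.44. Its model difference was 1.87, and 1.24 with a term for the Gapdh ratio. Igsf6, an immunoglobulin-type receptor of dendritic cells and macrophages, had the same order, at 5.11 to 5.34, 4.40 to 4.62 and 2.26 to 3.45. For Plscr2, a scramblase family member, the mean of the other 6 was below the filter limit, and drug minus control was 1.27.

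Cyp1a1, the cytochrome P450 induced through the aryl hydrocarbon receptor, had another order. It was at 7.98, 5.10 and 5.14 in the model arrays, 4.38, 4.84 and 3.49 in the controls and 4.40, 0.99 and 1.22 in the drug arrays, so model 1 stood far above and drug 2 and drug 3 far below. The difference was 2.85 (SE 0.97), and it passed at an adjusted p of 0.0327 in limma with a term for the Gapdh ratio, at 4.55. Without model 1 the difference was 1.89. Mid1ip1, which promotes the assembly of acetyl-CoA carboxylase, was the lower gene of this kind. It was at 7.64, 7.81 and 7.84 in the model arrays, 8.03, 8.03 and 8.23 in the controls and 8.91, 9.0 and 10.1 in the drug arrays.

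Gene lists are given by counts of genes, 1 probe set each, beside all 10432 genes. Over all genes, 53.2% had a higher and 46.8% a lower mean in the model livers, the median difference was 0.03, and 2.09% and 1.23% were set apart on the high and the low side. By unadjusted p under 0.05, 3.27% were higher and 3.29% lower. No gene of any list passed the adjusted test. The lists were chosen with earlier results of these data known, so their counts are not independent of the data.

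Lists of detoxifying and mitochondrial enzymes had more lower than higher genes. Of 22 conjugation enzymes kept, 19 were lower and 3 higher, with a median of -0.45, beside -0.07 for drug minus control. By unadjusted p, 6 were lower and 0 higher, and Gstm7, Gstm4 and Gstz1, all glutathione transferases, were set apart below at -1.17, -0.91 and -0.38. Gstm probe sets can share sequence among near-identical family members, so these values are uncertain between them. Of 52 genes of oxidative phosphorylation, 43 were lower, with a median of -0.36, but drug minus control had the same median of -0.36 and 0 genes were set apart. Relative to all genes, the median of this list was -0.39 and became -0.10 with a term for the Gapdh ratio and -0.61 without normalization. It was -0.24 without model 3. The median of the conjugation enzymes went from -0.48 to -0.33 with the Gapdh term.

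Antioxidant and sulfur-handling enzymes had 21 of 28 lower, with a median of -0.23 and -0.38 for drug minus control. Relative to all genes, the median was -0.26, and -0.047 with a term for the Gapdh ratio, -0.13 without control 1 and drug 1 and -0.42 without normalization. It was -0.49 without model 1. Ethe1, Tst, the rhodanese that also acts on sulfide-derived sulfur, at -0.55, and Gclc, the catalytic subunit of glutamate-cysteine ligase, at -0.41, were set apart below. Hmox1, the haem oxygenase, was set apart above at 1.29, with model 1 at 8.98 and the other model arrays at 6.74 and 6.79, next to 6.72 in drug 1. Glrx was set apart above at 0.34. In the list of urea cycle and amino acid breakdown, 24 of 33 were lower, with a median of -0.13. By unadjusted p, 7 of these were lower and 0 higher, and Gpt and Bckdha, a subunit of the branched-chain keto acid dehydrogenase, were set apart.

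Of 25 flavin monooxygenases and cytochrome P450 enzymes kept, 16 were lower and 9 higher, with a median of -0.27. Fmo1 was the 1 set apart below, while Fmo4 differed by -0.52 and Fmo5 by 0.19. Cyp1a1 and Cyp1a2, at 0.39, were set apart above. Relative to all genes, the median of the list was -0.30, and without control 2 and drug 3 it was -0.02. Several P450 enzymes differ between the sexes in the rat, and the lists of male- and female-predominant liver genes, with relative medians of -1.81 and 1.2, went to 0.41 and -0.02 without these arrays. Stac3, counted among the male-predominant genes, was set apart below at -3.60, with 10.04 in control 2 and 11.2 in drug 3 and 4.60 to 7.31 in the other controls and drug arrays. Without control 2 and drug 3 its difference was -2.04.

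Genes of lipid metabolism did not share a direction. Scd, the desaturase that makes monounsaturated fatty acids, was at 9.10, 7.37 and 8.58 in the model arrays, 11.1, 9.17 and 11.5 in the controls and 10.8, 9.18 and 10.9 in the drug arrays. The highest model array, model 1, lay just below control 2 and drug 2, and the difference was -2.09 (SE 0.56). Pklr, the liver pyruvate kinase counted with that list, differed by -1.15, with model 2 and model 3 inside the control range, and by -0.64 without model 1. Of the 26 genes of fatty acid and triglyceride synthesis, 18 were lower and 8 higher, with a median of -0.10 and Scd and Mid1ip1 set apart. Relative to all genes, that median was -0.13, and -0.29 without control 2 and drug 3. With a term for the Gapdh ratio it was -0.37 and without normalization -0.27. Leaving out 1 array in turn took it from -0.064 (without drug 2) to -0.41 (without model 3), and it was -0.36 without control 2. Of 19 genes of cholesterol synthesis, 16 were higher, with a median of 0.57 and 0 set apart. Drug 3 was the lowest of the 9 arrays in that list, and without control 2 and drug 3 its median relative to all genes went from 0.54 to 0.22. Plin5, a lipid droplet protein, was set apart above at 1.15, and Apoc3, an apolipoprotein that slows triglyceride clearance, below at -0.21.

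Most myeloid markers had higher means in the model livers, and their medians for drug minus control were also above 0. Of 26 myeloid receptors and adaptors kept, 24 were higher, with a median of 0.34 and a median of 0.40 for drug minus control. Siglec5, Igsf6 and Cd33 were set apart above. As this list was chosen with earlier results of these data known, its counts give no independent support. Of 18 Kupffer cell and macrophage markers, 14 were higher with a median of 0.58, and 0.46 for drug minus control. Relative to all genes, the median was 0.55, and 0.31 without control 2 and drug 3. It was 0.20 without model 2 and 0.36 without control 2. Fcer1g, the signalling chain of several Fc receptors, was set apart at 0.82. The summed signal of these markers was 2919 to 5021 in the model arrays, 1897 to 2990 in the controls and 2686 to 4183 in the drug arrays, so the groups overlapped.

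Neutrophil markers varied widely between arrays of 1 group. S100a9, a calcium-binding protein abundant in neutrophils, was at 10.5, 8.42 and 9.96 in the model arrays, 6.14, 7.89 and 6.40 in the controls and 6.57, 10.1 and 6.53 in the drug arrays. Drug 2 was thus higher than model 2 and model 3. Of 15 listed neutrophil markers, 6 were kept, and their summed signal was 463 to 2694 in the model arrays, 166 to 355 in the controls and 180 to 1502 in the drug arrays. Camp and Cxcr2 were below the filter limit. Il1b, an inflammatory cytokine, was set apart at 1.11, with drug minus control at 1.12, while Cxcl1, a neutrophil-attracting chemokine, differed by 1.95 and reached 9.29 in model 1 and 7.06 in drug 2. Without model 1 the difference of Cxcl1 was 0.84. What part the share of these cells has in Gas6, Snx10, Runx1 and the other higher genes was not tested.

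Several endothelial markers were set apart above while their drug means lay near or below the control means. Lyve1, a hyaluronan receptor of the sinusoidal endothelium, was at 8.60, 9.42 and 8.70 in the model arrays, 7.83, 8.48 and 8.13 in the controls and 6.99, 8.16 and 7.86 in the drug arrays, a difference of 1.0 (SE 0.32). Flt1, a receptor of vascular endothelial growth factor, Bmp2, a ligand that controls iron uptake through hepcidin, and Stab2, a scavenger receptor, differed by 1.10, 0.70 and 0.61. Drug minus control was -0.48 for Lyve1, -0.83 for Flt1, -0.58 for Bmp2 and 0.04 for Stab2. These were 4 of the 17 markers kept, beside 2.09% of all genes. In the list, 10 of the 17 were higher and 7 lower, from -1.30 to 1.10, with a median of 0.20. The median for drug minus control was -0.48. Leaving out 1 array in turn took the relative median of the list from -0.051 (without model 1) to 0.40 (without model 3). That relative median was 0.17 with all arrays and 0.08 without control 2 and drug 3. The summed signal was 1246 to 1832 in the model arrays, 1199 to 1354 in the controls and 1039 to 1213 in the drug arrays, and model 3 lay within the control range.

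Stellate cell and matrix markers had 11 of 18 higher, with a median of 0.11, and Pcdh18 and Vim, vimentin, were set apart, Vim at 0.91, and at 0.52 without model 2. In the list of fuel metabolism, Insr, the insulin receptor, was set apart above at 0.74, with 6.15, 6.29 and 6.20 in the model arrays and 5.09 to 5.93 in the other 6. Pck1, the rate-limiting enzyme of gluconeogenesis, was set apart above at 0.60, although 13 of the 21 genes of that list were lower. Per1, a clock gene, was set apart above at 1.41, with drug 3 at 2.02 far below the rest, and was the 1 of 18 clock genes that was. Without control 2 and drug 3 its difference was 0.85. Among plasma proteins, Serpina4, the serpin kallistatin, was lower at -1.32 and Fga, a fibrinogen chain, higher at 0.22, and both were set apart, while 22 of 43 genes were higher and 21 lower.

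**Figure D4:**
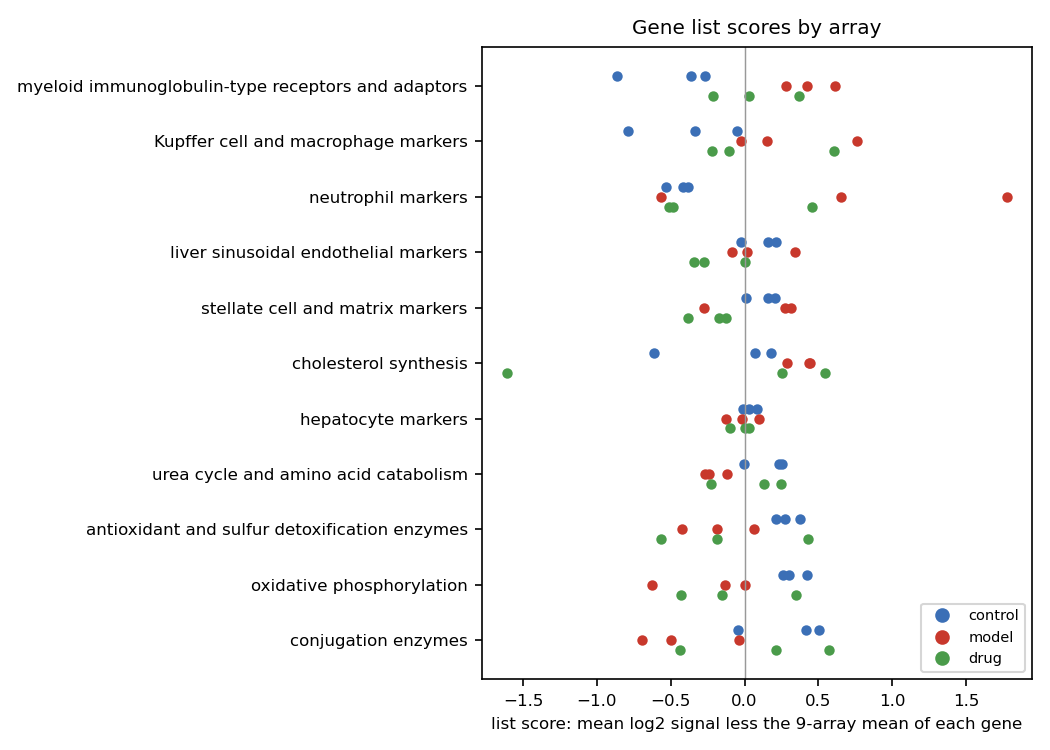
List score of each array, the mean over the kept genes of a list of the log2 signal less that gene's mean over the 9 arrays, with 1 point per array coloured by group. Myeloid receptors lie at 0.28 to 0.61 in the model arrays and at -0.22 to 0.37 in the drug arrays, while drug 3 lies at -1.61 for cholesterol synthesis.

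Which of the other 6 arrays came closest to the model side was not even. Drug 2 was the nearest array for 188 of the 572 probe sets set apart (32.9%) and drug 3 for 128 (22.4%). The other 4 arrays were nearest for 56 (drug 1) to 74 (control 2). Drug 2 led on both sides, with 102 of the 342 higher and 86 of the 230 lower ones. Drug 2 also had the highest Gapdh ratio among the 6, at 9.20, followed by drug 3 at 8.71, and the part of this in the order was not tested. Among the model arrays, model 1 was nearest to the others for 231, model 3 for 174 and model 2 for 167.

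**Figure D5:**
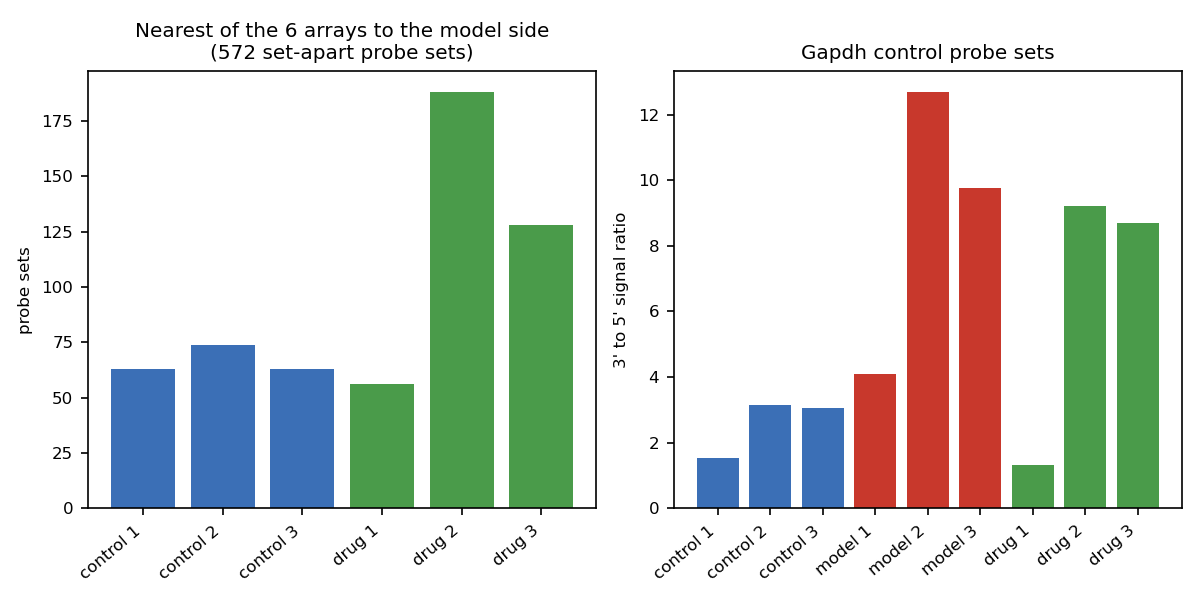
The left panel gives the number of set-apart probe sets for which each of the 6 control and drug arrays was nearest to the model side, and the right panel the ratio of 3' to 5' signal of Gapdh in all 9 arrays. Drug 2 has the tallest bar on the left at 188 and stands at 9.20 on the right, below model 2 and model 3 and above the other 6.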

How the data were processed

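The authors' deposited values were linear signal intensities, 1 per probe set and array. Biotin marked the total RNA, per the labels, and GCOS 1.2 is named in the submitters' processing notes. How its scaling was set is not given in the sources used here. In all, 31099 probe sets were listed, and 57 control probe sets were left out. The annotation gave 20826 of the other 31042 a single symbol, 436 several and 9780 none, and 20758 matched a RefSeq gene by Entrez identifier, with 0 symbols changed. Intensities were taken to log2 and quantile normalized, which removes any true shift in total RNA. Probe sets with a mean at or above the 40th percentile (2.82 log2) were kept, so genes dim in all groups are not covered.

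Differences were fitted with limma 3.58.1 in R 4.3.3 (lmFit, eBayes with an intensity trend), with 1 indicator for model and Benjamini-Hochberg adjustment over 18625 probe sets. Drug against control came from a fit with 1 term for each of the 3 groups. The code was tested on simulated data. The named genes were single-symbol probe sets set apart in the model arrays with the drug mean within 0.5 log2 of the control mean. Adjusted p came first, then the smallest unadjusted p, and 12 were taken on each side. Up to 4 on each side were added where drug and control differed by at least 1 log2, and the 2 with the smallest p from each of 36 gene lists. Further list members that were set apart, further list members given for comparison, and the genes tied to sex were named after their values were seen. The members and lists were chosen with earlier results of these data known. Lists used the brightest probe set of each gene. Same-numbered arrays were not paired by the labels, so no replicate block was used. Alternatives covered scaling, the filter, a log offset, array weights, the replicate block, a term for the Gapdh ratio, 1 probe set per gene and arrays left out. Precision is limited by the 3 arrays per group.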

Additional observations from a re-analysis of the deposited data

Results flagged for a closer look

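Fmo1 in control 1 was the 1 value, among 32 named genes and array measures examined, that lay far from the rest of its side. The gap from 6.89 to the nearest of the other control and drug arrays, at 8.26, was 0.65 of the range of the 6 arrays. The other 5 lay between 8.26 and 8.99, and the model arrays lay below control 1 all the same. Chance marks about 1 in 20 groups in this way.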

How the results depend on the processing

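Of 2190 values of 89 single genes under 28 alternative settings, 2171 kept their direction and side of the threshold, 10 passed in addition and 9 changed sign. None of these genes passed with the main settings, and they were picked for being set apart or for a small p. Keeping direction and side was thus largely fixed by the choice of genes, and nothing is read from that count. Without normalization, which moved the median of all genes from 0.03 to -0.24, Rpsa was -0.055, Hsp90b1 -0.087, Hnf4a -0.063 and Uty -0.10, from 0.52, 0.43, 0.42 and 0.21. There Tst was -1.08 and Herpud1 -1.0, and Fcer1g, Lyve1, Bmp2, Insr, Pck1, Vim and C5 were at 0.42, 0.55, 0.42, 0.48, 0.22, 0.56 and 0.32. Uty was -0.025 with a term for control 2 and drug 3 and also without them. Muc1, at -0.66 with all arrays, lay between -1.18 and 0.091, Anxa4, at -0.21, between -0.38 and 0.031 and Slc4a1, at -0.61, between -1.22 and 0.031 as 1 array was left out. Anxa4 was at -0.10 without control 2 and drug 3. The cause was not tested for any of the changes given here, except that 1 probe set per gene and the filters change the number of probe sets and that fewer arrays make it easier to be set apart. Depth cannot be read from the intensities, and dim genes limit the low side.

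Without normalization, 1 probe set passed the adjusted test, 568 the unadjusted test (694 for drug against control), 39 were set apart above (25 with drug near control) and 152 below (106). Without the filter these were 1, 1811 and, below, 393 (302), and with a 60th percentile filter 151 (133) below. Array weights gave 1 and 3137, and a term for the Gapdh ratio gave 2 adjusted calls, Fmo1 and Cyp1a1. With 1 probe set per gene, 1 passed and 751 had an unadjusted p under 0.05, 218 (183) were set apart above and 128 (116) below. Without control 1 and drug 1 there were 1, 754 (2769 for drug against control), 580 (434) and 453 (386). Without control 2 and drug 3 there were 653 (539) above, 523 (461) below and 456 for drug against control.

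Leaving out 1 array in turn gave 0 to 1 adjusted calls (1 without control 1), 730 to 2299 unadjusted calls, 417 to 1243 (313 to 998) set apart above and 285 to 1040 (239 to 844) below. The numbers set apart moved by over 1.5 times without model 1, 2 or 3 or drug 2, and on the low side also without drug 3. For drug against control it gave 728 to 3752 unadjusted calls, with such moves without control 2 (892), drug 1 (3752), drug 2 (749) and drug 3 (728).

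Same-numbered arrays had correlated deviations of -0.01 to 0.48, beside -0.37 to 0.32 for arrays of different number. Those of replicate 1 were 0.20, 0.48 and 0.39. Deviations from a group mean cancel out within the group, so the ranges for same and different numbers are not independent of each other. Not every same-numbered pair was over 0.1 and the labels do not pair the arrays, so the replicate numbers were not taken as pairs. Whether same-numbered arrays share a source of variation was not tested. With a replicate block, 2 probe sets passed, Fmo1 and Scd, both at an adjusted p of 0.0329 in limma, 1868 had an unadjusted p under 0.05, and drug against control had 2235.

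List medians are given less the median of all genes. Without normalization, with median centring and with trimmed mean scaling alike, endoplasmic reticulum folding went from 0.15 to -0.015, urea cycle and amino acid breakdown from -0.16 to -0.37, bile acids from -0.04 to -0.22 and glycolysis and gluconeogenesis from -0.23 to -0.46. The 60th percentile filter gave 2.25 for neutrophil markers (0.61 before) and -0.18 for cell cycle (0.31 before). With a term for the Gapdh ratio, hepatocyte markers were at 0.011, myeloid receptors at 0.60, endothelial markers at 0.44, erythroid markers at 0.56, fatty acid oxidation at 0.10, clock genes at -0.22 and the proteasome at 0.022. Without control 1 and drug 1, myeloid receptors were at 0.67 and cell cycle at 0.15. As 1 array was left out, Id proteins and BMP signalling ranged from 0.036 to 0.30, cell cycle from 0.14 to 0.33, hepatocyte markers from -0.13 to -0.0031, endothelial markers from -0.051 to 0.40, neutrophil markers from 0.56 to 1.54 and stellate markers from -0.17 to 0.29.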

Other observations

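Of 25 interferon response and antigen presentation genes kept, 13 were higher and 12 lower, with a median of 0.05. Irf7, a transcription factor of the interferon response, differed by -0.71 and Isg15, a ubiquitin-like protein, by -0.67, with drug minus control at 0.66 and 0.64. Irf7 differed by -0.47 without model 3. Ciita, the switch for class II antigen presentation, was set apart above at 0.58. Complement C5 was 0.85 (SE 0.25) higher, at 11.2, 10.6 and 10.9 in the model arrays and 9.74 to 10.7 in the other 6, where drug 2 was the highest and overlapped with model 2.

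Hsd3b7, an enzyme of bile acid synthesis, was the 1 of 21 genes of its list that was set apart, at -0.81. Of 24 genes of endoplasmic reticulum folding and stress, 17 were higher, while Herpud1, a protein of degradation at that membrane, was set apart below at -0.60, and was at -0.37 without model 3. Bcl3, a nuclear partner of NF-kB, was set apart above at 0.96, and was at 0.58 with a term for the Gapdh ratio and 0.59 without control 1 and drug 1. Lbp, which carries bacterial lipopolysaccharide to its receptor, differed by 1.11, or 0.49 without model 1, with 11.6 in model 1 and 10.6 in drug 2 against 8.58 to 9.83 in the other 7 arrays.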
